A study of Eucalyptus camaldulensis with 12 samples.

Results

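Laccases are a family of secreted copper enzymes of plants, and 6 of them were followed here in leaves of Eucalyptus camaldulensis, the river red gum, through a period of water deficit. The 6 genes are Eucgr.F04160, Eucgr.F02646 and Eucgr.H02579, whose best Arabidopsis match is laccase 14, Eucgr.E04220, which matches laccase 1, Eucgr.F02649, which matches laccase 2, and Eucgr.F02648, which matches TT10. They were taken from a supplementary table of the study that lists transcripts different between stressed and watered leaves at the end of the treatment, and were joined to the count table by scaffold, start and end. They were therefore selected on the counts of the C1 and S1 libraries, so their difference between those groups is given as a description without a test. The 6 are part of 15 laccases named in the supplementary tables and of 43180 predicted transcripts in all.

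A laccase takes electrons from a phenolic compound and passes them to oxygen, and the phenolic radicals that result can couple to each other. In Arabidopsis LAC4, also called IRX12, and LAC17 polymerize monolignols into the lignin of stem cell walls, whereas TT10 oxidizes flavonoids in the seed coat and takes part in the browning of its tannins. Eucalypt leaves are rich in tannins and other phenolic compounds.

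Each of 12 libraries came from leaf RNA bulked over seedlings of 1 population, and 2 leaves were taken from each seedling. The populations were Katherine from the dry tropics, Mt Isa from the semi-arid tropics and Petford from the humid tropics, all raised from seed in pots in a glasshouse. The C0 libraries held 5 watered control seedlings per population before the treatment, and C1 held the same seedlings, kept at field capacity throughout, at its end. The S0 libraries held 10 other seedlings per population before the treatment, and S1 held those seedlings once they had spent about 2 months with water held to 30% of field capacity. Each group thus had 3 libraries, 1 per population, and the populations served as the replicates. The start and the end of the treatment also differ in season and in the age of the seedlings, and these cannot be told apart from time in C0 against C1. A bulk hides the spread between seedlings, and p-values of comparisons between groups measure the spread between populations.

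Library totals were 1902802 to 3277834 counts in C0, 1759873 to 2987962 in C1, 1726793 to 6126611 in S0 and 2343370 to 6951584 in S1. Levels are given as CPM, which are reads scaled to a common library size by the TMM method and do not take transcript length into account and are compared only within a gene. The leaf markers RBCS1A (the small subunit of Rubisco), LHB1B1 and LHCB3 (proteins of the light-harvesting antenna) had reads in 12 of 12 libraries, and RBCS1A took 0.179% to 4.16% of a library. In a bulk of leaf RNA, fewer cells of a type and less RNA per cell cannot be told apart. For Mt Isa, the source descriptions of the C1 library and the S0 library contradict the titles, and the groups used here follow the titles and the sample group label. Without the Mt Isa C1 library the median log2 fold change of the 6 laccases from C0 to C1 was 3.19 in place of 3.45, and that from C1 to S1 was -8.22 in place of -8.39. Without the Mt Isa S0 library the median from S0 to S1 was -5.72 in place of -4.87, over the 5 laccases that still had 10 reads.

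The 6 laccases lie in 3 tandem arrays and at 1 further position on the draft genome of E. grandis to which the authors mapped the reads. The first array, on scaffold 6 from 36007093 to 36222406, is 215 kb long and holds 6 of the 15 laccases. Eucgr.F02646 (36118531 to 36123466), Eucgr.F02648 (36136694 to 36142213) and Eucgr.F02649 (36167314 to 36172726) follow each other in it, 13.2 and 25.1 kb apart. The second array, also on scaffold 6, is 69.9 kb long with 4 laccases, among them Eucgr.F04160 (49800534 to 49804800). The third, on scaffold 5, is 35.5 kb long and holds Eucgr.E04218 and Eucgr.E04220 (72957048 to 72957415). Eucgr.H02579 lies on scaffold 8 (36074290 to 36078641) with no other named laccase on that scaffold. None of the 15 overlapped another predicted transcript (0 overlaps for each). Tandem copies can share sequence, and how reads that match several copies were counted is not given in the sources used here, so the division of reads among the copies of an array is uncertain.

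The laccase 14 genes had low to moderate counts before the treatment, several times as many in watered leaves at its end, and almost none in stressed leaves. Eucgr.F04160 had 52.8, 72.8 and 68.2 CPM in the C0 libraries of Katherine, Mt Isa and Petford, and 535, 840 and 538 CPM in C1. It had 80.2, 99.1 and 73.9 CPM in S0, and 1, 2 and 0 reads in S1 (0.205, 0.771 and 0 CPM). Every C1 library was above every C0 library and every S1 library below every S0 library. The log2 fold change from C0 to C1 was 3.27 ± 0.23 (SE, n = 3 against 3), and the ratio between populations' own libraries was 7.89 to 11.5. With 3 reads in all of S1, the pooled level was 376 times lower than in S0 (95% Clopper-Pearson interval 128 to 1826) and 2858 times lower than in C1 (977 to 13864). These intervals cover counting error only.

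Eucgr.F02646 was the only one of the 6 without a read in stressed leaves. It had 13.8, 20.0 and 28.0 CPM in C0 and 151, 295 and 235 CPM in C1, a log2 fold change of 3.44 ± 0.30. In S0 it had 26.9, 39.9 and 19.9 CPM, from 233 reads, and in S1 0 reads in each of the 3 libraries, which allows a level of up to 0.214 CPM over that group. Against a floor of 3 reads over the group, the S1 level was at least 120.1-fold lower than in S0 and at least 1025-fold lower than in C1.

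Eucgr.H02579, the laccase 14 gene outside the arrays, followed the same order with more spread between populations. Its C0 libraries had 5.63, 12.6 and 24.8 CPM and its C1 libraries 111, 325 and 162 CPM, so that the ratio was 6.53 in Petford and 25.9 in Mt Isa. It had 19.1, 29.0 and 14 CPM in S0, and 1, 2 and 1 reads in S1 (0.205, 0.771 and 0.153 CPM). The log2 fold changes were 3.79 ± 0.46 from C0 to C1, -5.99 ± 0.54 from S0 to S1 and -9.38 ± 0.61 from C1 to S1 (SE, n = 3 against 3). Without the Mt Isa S1 library, which held 2 of its 4 reads in S1, the latter values were -6.66 and -10.03.

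**Figure D1:**
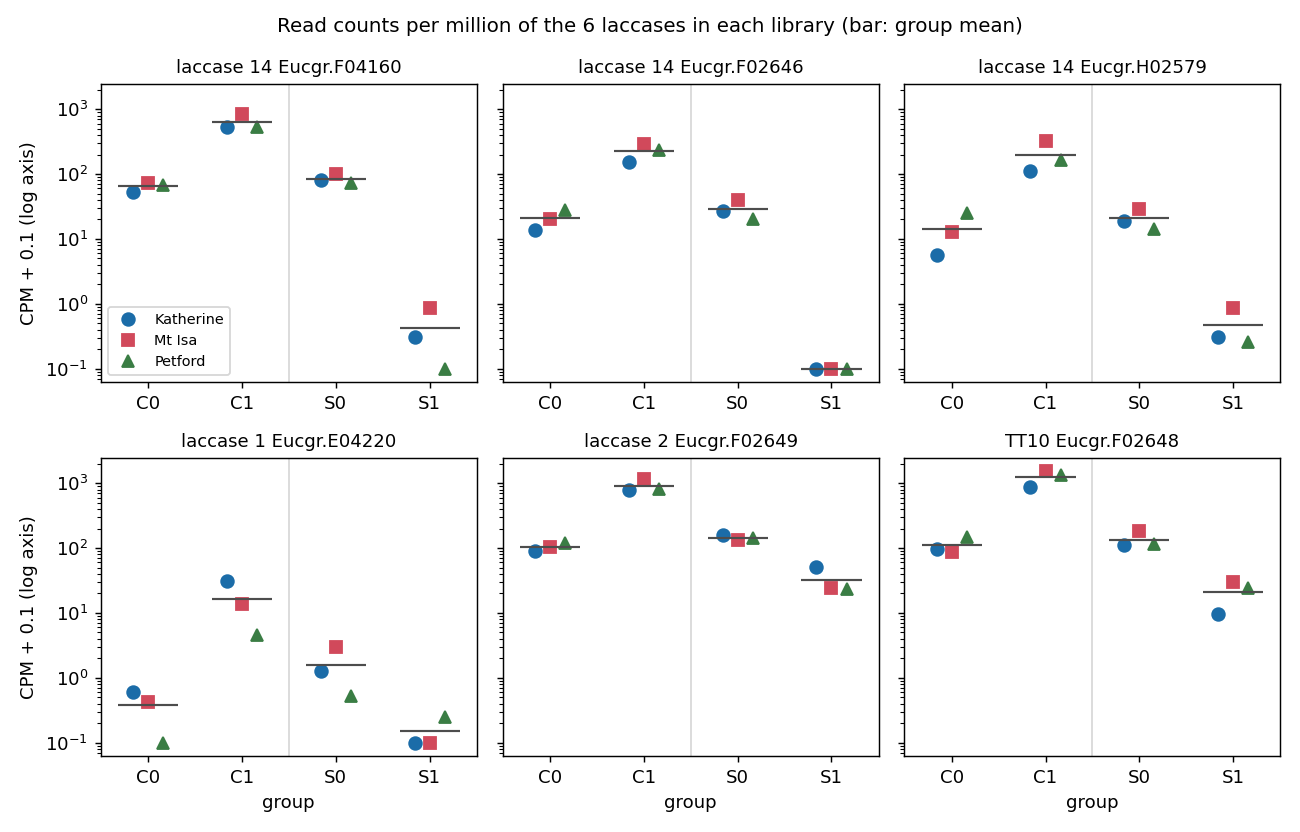
CPM plus 0.1 (log axis) of the 6 laccases in each library, by group, with a symbol for each population and a bar at the group mean. All 3 points of C1 lie above those of C0 and S0 in each panel, and the 3 S1 points lie below those of S0, at 0 reads for Eucgr.F02646 and at 9.64 to 50.7 CPM for TT10 and laccase 2.

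TT10 and laccase 2, neighbours in the first array, had the most reads of the 6 and kept a measurable level in stressed leaves. TT10 (Eucgr.F02648) had 96.3, 87.3 and 149.6 CPM in C0, and 862, 1532 and 1336 CPM in C1. It had 111, 180.5 and 114 CPM in S0, and 9.64, 30.4 and 23.8 CPM in S1. The lowest S1 library was that of Katherine, and each S1 library stood 4.8 to 11.5 times below the S0 library of its population. The log2 fold changes were 3.46 ± 0.27 from C0 to C1, -2.71 ± 0.36 from S0 to S1 and -5.99 ± 0.43 from C1 to S1.

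Laccase 2 (Eucgr.F02649) had 89.1, 105 and 121 CPM in C0, 784, 1155 and 802 CPM in C1, and 158, 132 and 141 CPM in S0. In S1 it had 50.7, 23.9 and 23.3 CPM, and here the Katherine library was the highest, the reverse of TT10. Its log2 fold changes were 3.09 ± 0.22 from C0 to C1, -2.16 ± 0.28 from S0 to S1 and -4.92 ± 0.34 from C1 to S1. In Katherine the S1 level was 3.12 times below S0 for laccase 2 and 11.5 times below it for TT10, although the genes lie side by side.

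Eucgr.E04220, the match to laccase 1, had the fewest reads of the 6, 154 over the 12 libraries. Its predicted transcript spans 368 bases, against 4267 to 5520 for the others, so the read counts do not rank its abundance among them. It had 1, 1 and 0 reads in C0, and 97, 29 and 15 reads in C1 (31.3, 13.5 and 4.54 CPM), with Katherine the highest and Petford the lowest. It had 3, 5 and 2 reads in S0 and 0, 0 and 1 in S1. The pooled level was 57.3 times higher in C1 than in C0 (95% interval 15.6 to 478), 231 times lower in S1 than in C1 (40.7 to 9173) and 15.5 times lower in S1 than in S0 (2.20 to 671). A further predicted transcript with the same gene identifier, at 72958209 to 72959279, matches laccase 14 and had 62, 22 and 15 reads in C1 and 0 in each S1 library. The nearest laccase of that array, Eucgr.E04218, had the same order of populations in C1, with 335, 137 and 60.5 CPM.

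All 6 laccases thus had the same order of group means, C1 above S0, S0 above C0 and C0 above S1. Except for Eucgr.E04220, the means of S0 and C0 were the neighbours that lay closest in CPM. The C0 and S1 libraries of Eucgr.E04220, with 0 or 1 read each, overlapped. Every C1 library was above every C0 library in 6 of 6, as in 14.8% of all transcripts tested. Every S1 library was below every S0 library in 6 of 6, as in 20.8% of all transcripts, and below every C1 library in 6 of 6, as in 22.6%. In the fits, 6 of 6 passed an adjusted p of 0.01 as higher in C1 than in C0, where 2.35% of all transcripts were called higher and 3.90% lower, and 5 of 6 as lower in S1 than in S0, where 10.3% were called lower and 8.85% higher. The exception was Eucgr.E04220. With the population as a block, which pairs the same seedlings, the calls over all transcripts from C0 to C1 went from 851 to 1905 higher and from 1412 to 2359 lower, and those higher from S0 to S1 from 3560 to 5661. From C1 to S1, the contrast by which the genes were listed, 6 of 6 were lower, a count that follows from the selection, beside 12.5% of all transcripts called lower and 9.81% higher. Since C1 or S1 libraries chose the genes, nothing is read from any of these counts. The median log2 fold change of the 6 was 3.45 from C0 to C1, -4.87 from S0 to S1 and -8.39 from C1 to S1, beside 0.05, 0.02 and -0.04 over all transcripts tested. Setting Eucgr.F02646 at its bound could not move the medians of -4.87 and -8.39, since the bound lies beyond the middle pair of values. That pair is Eucgr.H02579 and Eucgr.E04220, with 4 reads and 1 read in S1. Both medians thus rest on genes near the detection limit in S1. The 3 leaf markers fell from C0 to C1, where the 6 laccases rose. RBCS1A had log2 fold changes of -1.64 ± 0.27 in watered and -3.80 ± 0.42 in stressed seedlings. The part of the leaf markers in the laccase result was not tested.

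Among the reads of the 6 laccases, the share of TT10 and laccase 2 overlapped between C0, C1 and S0 and was higher in S1. TT10 and laccase 2 together gave 64.6% to 71.8% of the reads of the 6 laccases in the C0 libraries, 64.6% to 69.5% in C1 and 64.6% to 70.2% in S0. In S1 they gave 97.2% to 99.4%. The total over the 6 was 0.0256% to 0.0389% of the library in C0, 0.298% to 0.509% in C1, 0.0280% to 0.0491% in S0 and 0.00445% to 0.00619% in S1. In stressed leaves the smaller total was thus made up almost wholly of TT10 and laccase 2. Over all 15 named laccases, C1 also stood apart from C0 and S0. TT10 and laccase 2 gave 51.9% to 61.4% of the reads in C1, against 37.9% to 48.1% in C0 and 39.4% to 44.8% in S0, and the 7 other laccases of the arrays gave 9.59% to 20.9% in C1, against 24.1% to 39.1% in C0 and 26.9% to 33.3% in S0.

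**Figure D2:**
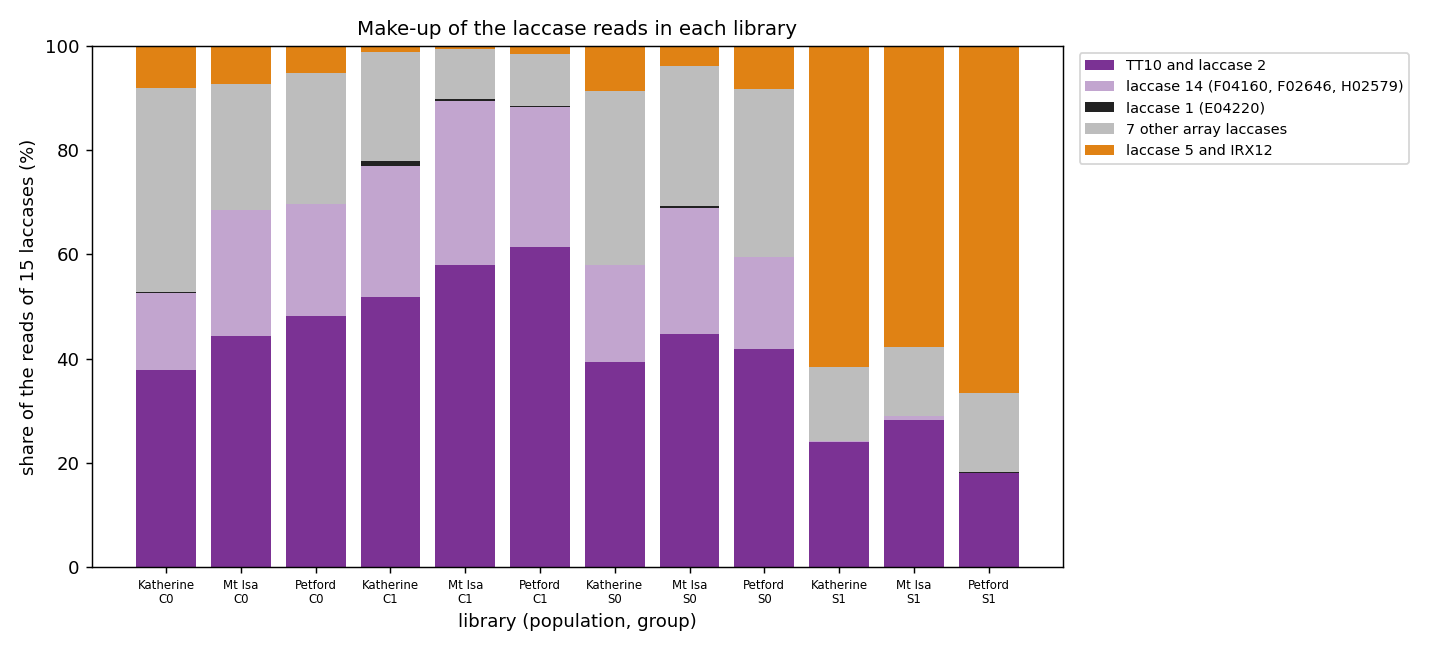
Share of the reads of 15 laccases (%) given by each class of laccase, 1 bar per library, ordered by group and population. The 3 laccase 14 genes among the 6 gave 14.8% to 31.5% of the reads in C0, C1 and S0 and at most 0.803% in S1, where laccase 5 and IRX12 gave 57.8% to 66.5%.

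The comparison of C0 with S0 asks whether the seedlings that were to be watered and those that were to be stressed differed before the treatment, and it uses no library by which the genes were chosen. In edgeR's quasi-likelihood test none of the 6 laccases passed an adjusted p of 0.01 (0 of 6, where 0.191% of all transcripts were called), and 1 of 6 had an unadjusted p under 0.05. That gene was laccase 2, with a log2 fold change from C0 to S0 of 0.43 ± 0.17 and an edgeR adjusted p of 0.725. The share of all transcripts with an unadjusted p under 0.05 was not counted, so nothing is read from such counts here or below. Of the others, Eucgr.F04160 had 0.36 ± 0.19, Eucgr.F02646 0.44 ± 0.31, Eucgr.H02579 0.49 ± 0.43 and TT10 0.27 ± 0.24, with edgeR adjusted p-values of 0.841 to 0.945. Eucgr.E04220 had the largest ratio of the 6 with the least precision, a pooled level 3.84 times higher in S0 (95% interval 0.819 to 36.1, counting error only) from 10 reads against 2, and an edgeR adjusted p of 0.874. Every S0 library was above every C0 library for 2 of the 6, Eucgr.F04160 and laccase 2, and this held for 6.07% of all transcripts. The exact test of edgeR also called 0 of 6 and DESeq2's Wald test 0 of the 5 to which it gave an adjusted p (not Eucgr.E04220), with 1 at an unadjusted p under 0.05 in each. With the population as a block, 207 of all transcripts were called in place of 69, and again 0 of the 6 laccases.

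The populations were compared over all 12 libraries with the group as a term, so that each population entered with 1 library per group. C0 and C1 held the same seedlings, as did S0 and S1, but the fit treated these libraries as independent. Its p-values can therefore be too small, here and in the comparisons of populations below. None of the 6 laccases passed an adjusted p of 0.01 in edgeR (0 of 6, where 1.18% of all transcripts were called). In edgeR 5 of 6 had an unadjusted p under 0.05, and DESeq2's likelihood ratio test called 0 of 6 with 4 under 0.05. How many of all transcripts had an unadjusted p under 0.05 was not counted. Eucgr.H02579 had an edgeR adjusted p of 0.0714, with Katherine lower than Mt Isa by a log2 difference of -1.12 ± 0.29. TT10 had an edgeR adjusted p of 0.0909, and Katherine lay below Mt Isa (-0.72 ± 0.20) and below Petford (-0.61 ± 0.20). Eucgr.E04220 had an edgeR adjusted p of 0.0755 and the opposite order, with Katherine above Petford by 2.29 ± 0.59. Laccase 2 showed the least difference, with pairwise values of 0.10 to 0.22 and an adjusted p of 0.904. These calls turned on single libraries. Without the Mt Isa C0 library 2 of 6 were called, Eucgr.H02579 at an edgeR adjusted p of 0.00385 and TT10 at 0.00301, and Eucgr.H02579 alone was called without the Petford C0 library (0.00195) or the Katherine S0 library (0.00625).

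The other 9 laccases named in the supplementary tables fell into those that followed the 6 and those that went the opposite way at the end of the treatment. Of the 9, 8 come from the table that lists differences between C1 and S1, so their direction there is a description. The 7 that lie in the arrays with the 6 were lower in S1 than in C1, with 2 of them near the detection limit. Eucgr.F02642 had 77 reads in C1 and 0 in S1, at least 42.0-fold lower, and Eucgr.F04162 had 3 reads in S1, a ratio of C1 to S1 of 103 (95% interval 34.7 to 504). Eucgr.E04218 had a log2 fold change from C1 to S1 of -8.10 ± 0.76, Eucgr.F04158 of -4.77 ± 0.37 and Eucgr.F04159, the match to laccase 17, of -4.66 ± 0.36. The genes at the ends of the first array had smaller values, -3.08 ± 0.21 for Eucgr.F02641 and -2.93 ± 0.25 for Eucgr.F02652. From C0 to C1, Eucgr.F02652 had a log2 fold change of 0.71 ± 0.27, whereas the other 6 had 1.29 to 3.85. In libraries before the treatment 0 of the 9 were called in edgeR, where 0.191% of all transcripts were, with 1 of 9 at an unadjusted p under 0.05. DESeq2's Wald test and edgeR's exact test also called 0. Between populations 0 of 9 were called in edgeR, where 1.18% of all transcripts were, with 4 under 0.05. With such low shares, 0 of 9 says little about these genes.

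**Figure D3:**
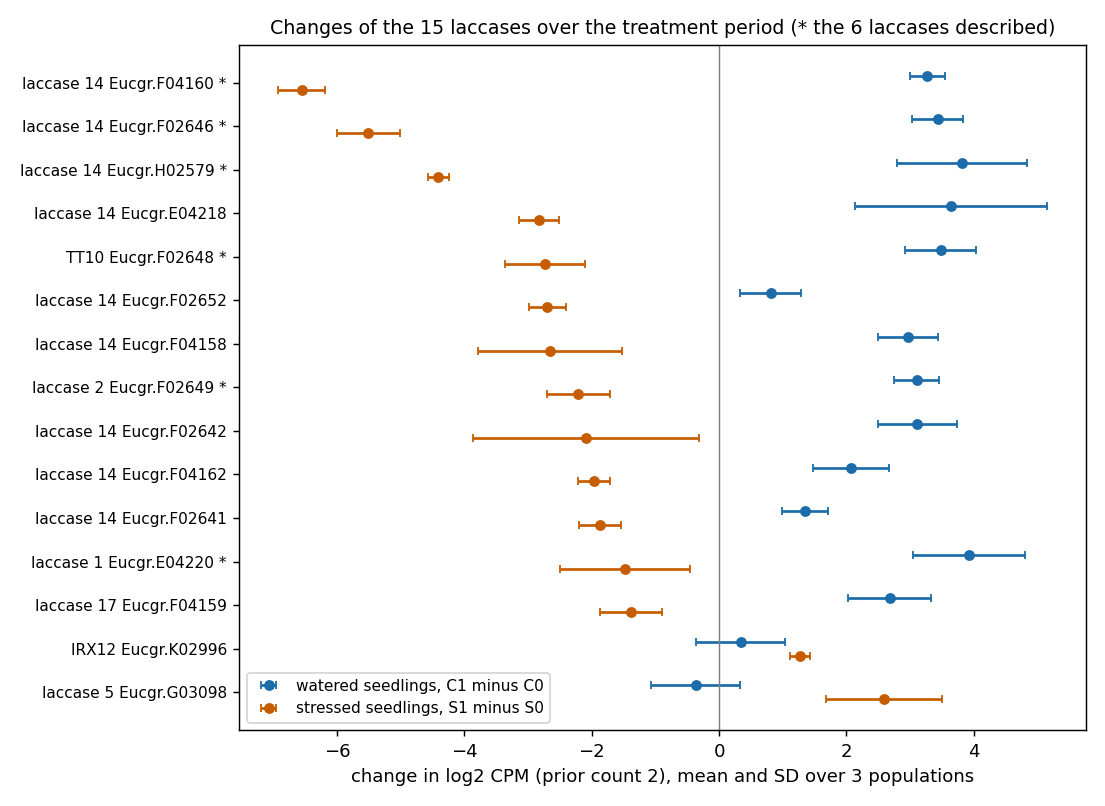
Change in log2 CPM (prior count of 2) of the 15 laccases, in watered seedlings from C0 to C1 and in stressed seedlings from S0 to S1, as mean and SD over the 3 populations. For 13 laccases the watered value is above 0 and the stressed value below 0, while IRX12 and laccase 5 have stressed values of 1.27 and 2.59.

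IRX12 (Eucgr.K02996) and laccase 5 (Eucgr.G03098) are single genes on scaffolds 11 and 7, outside the arrays. IRX12 was taken from the study's table of allelic expression, which was drawn up from S0 and S1 reads and favours well-covered genes and large differences, so its values against S1 are a description with no test. It had 27.7, 24.5 and 20.1 CPM in C0, 26.5, 23.2 and 45.1 CPM in C1, 41.3, 22.8 and 33.5 CPM in S0, and 91.1, 63.2 and 80.1 CPM in S1. All S1 libraries were above all others. The log2 fold change of IRX12 was 1.22 ± 0.23 from S0 to S1 and 1.19 ± 0.25 from C1 to S1. From C0 to C1, which uses neither S0 nor S1, it was 0.37 ± 0.26 (edgeR adjusted p = 0.481). Laccase 5 had 11.8, 7.41 and 8.46 CPM in C0, 8.72, 3.25 and 10.9 CPM in C1, 17.9, 3.42 and 17.2 CPM in S0, and 63.8, 47.8 and 92.5 CPM in S1, a log2 fold change from C1 to S1 of 3.0 ± 0.35.

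IRX12 and laccase 5 together gave 0.572% to 1.61% of the reads of the 15 laccases in C1 and 57.8% to 66.5% in S1. The secondary wall marker IRX3, the cellulose synthase subunit CESA7, also had its highest levels in S1. It had 1.62, 0.929 and 6.66 CPM in C1 and 285, 261 and 249 CPM in S1. MYB83, a transcription factor that switches on secondary wall genes in Arabidopsis, went the other way, with 119.9, 8.82 and 109.9 CPM in C1 and 0.205, 1.54 and 1.53 CPM in S1. Both markers come from the table of differences between C1 and S1, and their part in the laccase values was not tested.

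Flavonoids, which TT10 oxidizes in Arabidopsis, are made by chalcone synthase (CHS) and the enzymes after it, and 18 genes of this pathway were taken from the supplementary tables. From C0 to C1, 15 of 18 were called higher and 0 lower, where 2.35% and 3.90% of all transcripts were. From S0 to S1, 1 of 17 tested was called higher and 9 lower (8.85% and 10.3% of all), and from C1 to S1, 17 of 18 were called lower and 0 higher (12.5% and 9.81% of all). With the population as a block, 18 of 18 were called higher from C0 to C1, and 2 higher and 10 lower from S0 to S1. For all but 1 of these genes C1 and S1 values had put them in the table, so the counts are not independent evidence of a direction. The gene taken from the table of allelic expression, TT7 (Eucgr.B00582, flavonoid 3'-hydroxylase), had log2 fold changes of 1.68 ± 0.20 from C0 to C1 and 1.24 ± 0.24 from S0 to S1, given as a description. Before the treatment 0 of 18 were called between C0 and S0 in edgeR, where 0.191% of all transcripts were, with 2 at an unadjusted p under 0.05. DESeq2's Wald test and edgeR's exact test also called 0.

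Between populations 5 of the 18 flavonoid genes were called in edgeR, where 1.18% of all transcripts were. Whether this list and the laccases differ in how often they were called was not tested. The 5 were the CHS genes Eucgr.H02828 (edgeR adjusted p = 0.000307) and Eucgr.I01579 (0.000997), F3H (0.00147), DFR (0.00362) and the MYB5 match Eucgr.D02390 (0.00222). F3H and DFR act after CHS on the way to anthocyanins and tannins, and MYB5 is a transcription factor that regulates tannin synthesis in the Arabidopsis seed coat. For Eucgr.D02390 the paper's main tables give a specific Arabidopsis gene other than MYB5 as the match, annotated as a myb domain protein. Which factor Eucgr.D02390 encodes, and so whether it acts on tannins, is uncertain. In all 5 Mt Isa was the lowest population. CHS Eucgr.H02828 was higher in Katherine than in Mt Isa by 1.41 ± 0.29 and lower in Mt Isa than in Petford by -1.93 ± 0.29 on the log2 scale. Its C1 libraries had 1462, 315 and 1390.3 CPM in Katherine, Mt Isa and Petford, whereas Mt Isa had the highest C1 level for 5 of the 6 laccases. CHS Eucgr.H00087, the pathway gene with the most reads, was not called (edgeR adjusted p = 0.358). With DESeq2's likelihood ratio test, and with the libraries before the treatment alone, 2 of the 18 were called in place of 5. Over all transcripts these runs called 332 of 43146 and 204 of 36048.

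**Figure D4:**
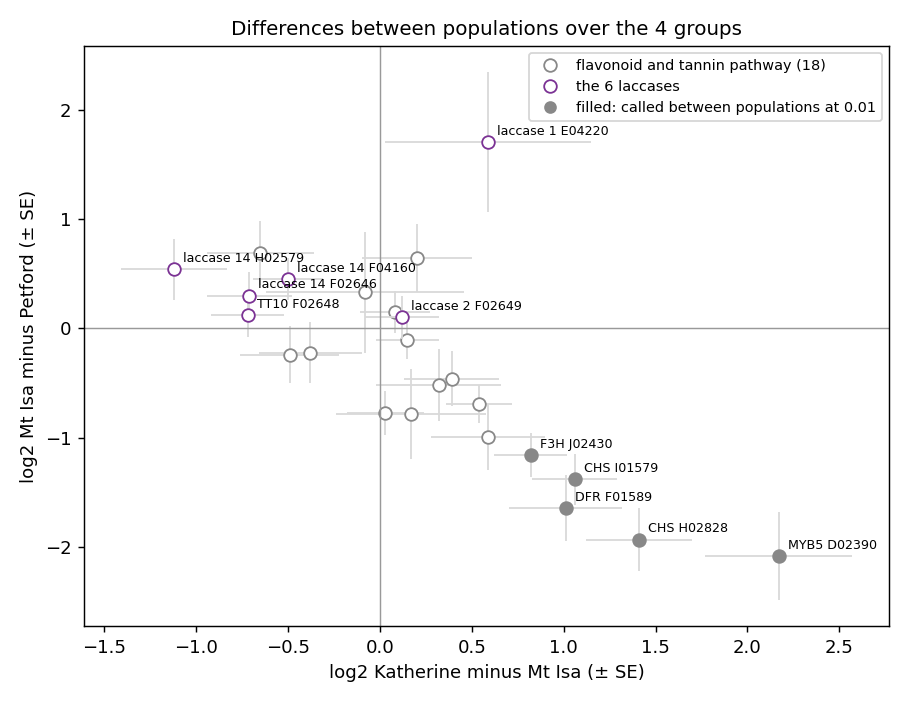
Log2 difference of Katherine minus Mt Isa (x axis) and of Mt Isa minus Petford (y axis), with SE, for the 6 laccases and 18 flavonoid and tannin genes, over 4 groups of libraries. The filled points, called between populations at 0.01, are 5 flavonoid genes at x values of 0.82 to 2.17, while Eucgr.H02579, Eucgr.F04160, Eucgr.F02646 and TT10 lie at x values of -1.12 to -0.50.

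Monolignols, the building blocks of lignin, are made from phenylalanine by another set of enzymes. For these enzymes 13 genes were listed, and 11 were matched to a transcript. From C0 to C1, 6 of 11 were called higher and 0 lower (2.35% and 3.90% of all transcripts), and with the population as a block 7 higher and 2 lower. From S0 to S1, 2 were called higher and 6 lower (8.85% and 10.3% of all), or 2 and 7 with the block, and from C1 to S1, 1 was called higher and 9 lower (9.81% and 12.5% of all). Most genes of these lists were chosen like the laccases, so nothing is read from the counts. The gene with the most reads, OMT1 Eucgr.E03874 (a methyltransferase of lignin and flavonoid precursors), had log2 fold changes of 1.72 ± 0.18, -2.85 ± 0.42 and -4.58 ± 0.47 in these comparisons. The genes called higher from S0 to S1 were those taken from the table of allelic expression, which used S0 and S1 reads, so these calls are a description. C4H, the cinnamate hydroxylase at the entry of the pathway, had a log2 fold change of 1.86 ± 0.30, and CYP98A3, which hydroxylates the ring of monolignol precursors, of 1.10 ± 0.22. From C0 to C1, C4H rose by 2.13 on the log2 scale (edgeR adjusted p = 0.00104). CYP98A3 had a log2 fold change of 1.05 ± 0.24 from C1 to S1. Between C0 and S0, 0 of 11 were called in edgeR, where 0.191% of all transcripts were, with 0 at an unadjusted p under 0.05. DESeq2's Wald test and edgeR's exact test also called 0. Between populations 3 were called, where 1.18% of all transcripts were. They were PAL2 (edgeR adjusted p = 0.00081), which starts the pathway, HCT Eucgr.F03973 (0.00465) and C4H (0.00635), again with Mt Isa the lowest. Before the treatment alone, 0 of the 11 were called between populations, where 204 of 36048 transcripts were.

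Class III peroxidases also oxidize monolignols in cell walls, with hydrogen peroxide in place of oxygen, and 10 of them were listed. Calls went both ways, and since the genes were chosen on C1 and S1 or on S0 and S1 reads, the calls against C1 or S1 are a description. From C1 to S1, 4 were called higher and 5 lower (9.81% and 12.5% of all transcripts), from S0 to S1, 3 higher and 5 lower (8.85% and 10.3% of all), and from C0 to C1, 2 higher and 1 lower (2.35% and 3.90% of all). With the block these were 3 and 6 from S0 to S1, and 3 and 1 from C0 to C1. PRXR1 (Eucgr.E04056) and the predicted transcript CUFF.35369, which had the most reads, had log2 fold changes from S0 to S1 of -3.62 ± 0.36 and -3.71 ± 0.21. PER27, taken from the table of allelic expression, had log2 fold changes of -2.54 ± 0.22 from S0 to S1 and -2.33 ± 0.26 from C0 to C1, given as a description. Between C0 and S0, 1 of 10 was called, where 0.191% of all transcripts were. The predicted transcript CUFF.19421 had 3.59, 10.3 and 3.70 CPM in C0 and 70.9, 37.0 and 50.8 CPM in S0, a log2 fold change of 3.05 ± 0.36 (edgeR adjusted p = 0.00146), and the call was lost without the Katherine C0 library (0.0226) or the Petford C0 library (0.0220). None was called between populations (0 of 10 in edgeR and by DESeq2's likelihood ratio test, with 3 at an unadjusted p under 0.05 in edgeR). In edgeR 1.18% of all transcripts were called there.

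Transcripts within 100 kb of the 6 laccases were chosen by position and not by their own counts. They lie beside genes selected on C1 and S1, however, and any that are parts of those genes would share the selected difference. There were 41 of them, of which 7 carry a laccase name and were chosen like the 6. Of the 34 others 32 were tested, and 12 were called in edgeR, 7 lower in S1 (where 12.5% of all transcripts were called lower) and 5 higher (where 9.81% were). The counts are small, and leaving out single libraries gave 6 to 9 calls. It was 7 without the Katherine C1, the Mt Isa C1 or the Katherine S1 library and 6 without the Petford C1 library. The 7 called lower had log2 fold changes from -7.42 to -1.17, and 5 of them lay within 3 kb of a named laccase, the closest 98 bases away. Of the 32 tested, 8 lay within that distance. The files give these transcripts no name, and whether they are parts of the laccase genes beside them was not tested. The 5 called higher lay at least 19702 bases from any named laccase, with log2 fold changes of 0.73 to 2.79. The single named gene among them was Eucgr.E04226, a match to seed imbibition 2, a member of the raffinose synthase family, which was higher in S1 by 2.79 ± 0.32. Names were available only for genes listed on C1 and S1 or on S0 and S1 reads, so this value is a description.

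**Figure D5:**
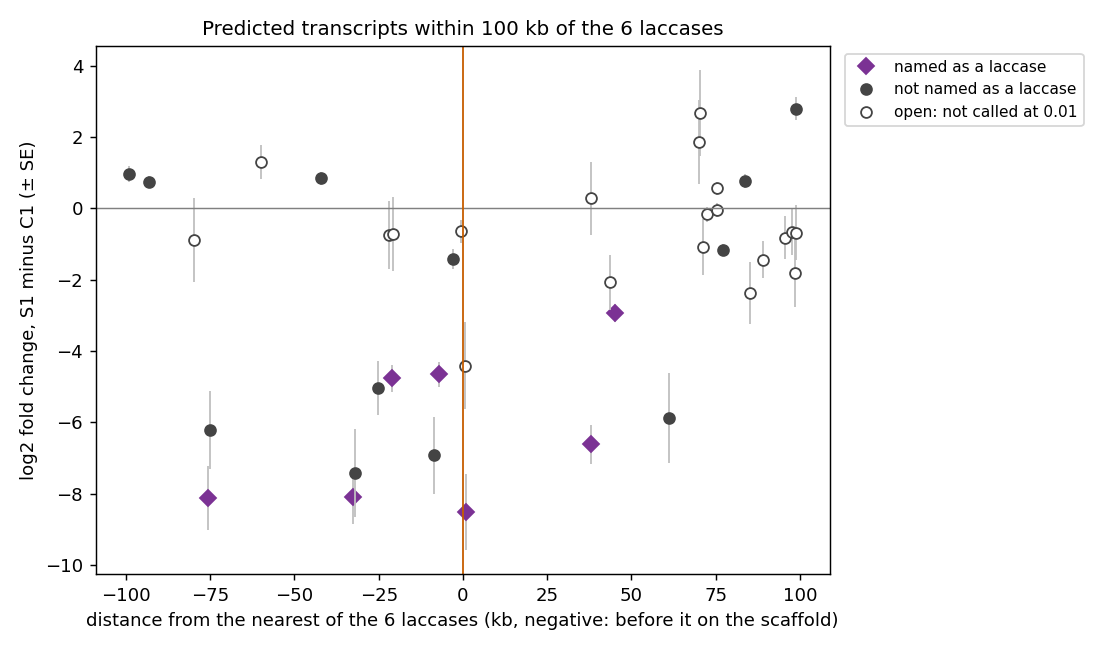
Log2 fold change from C1 to S1 (y axis, with SE) of transcripts within 100 kb of the 6 laccases, by distance from the nearest of them in kb (x axis). Diamonds carry a laccase name and filled symbols passed an adjusted p of 0.01. The 7 points of named laccases lie below 0, 2 of them with 0 reads in S1, and filled circles lie on both sides of 0.

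The likeness of patterns was measured by Pearson's r of log2 CPM over 12 libraries, which all genes share and which fall into 4 groups, so r follows mostly the differences between groups. Between pairs of the 6 laccases r was 0.740 to 0.992 with a median of 0.940 over 15 pairs. Eucgr.E04220 had the lowest r to the mean of the 6 (0.873) and Eucgr.H02579 the highest (0.988). Of the 9 other laccases IRX12 had an r of -0.675 to that mean and laccase 5 of -0.817. Those in the arrays had 0.8 (Eucgr.F02642) to 0.958 (Eucgr.F02641), so the pattern was not particular to the 6. Of 2227 transcripts with another gene identifier, those most like the mean were a methyltransferase of unnamed function, Eucgr.L00975 (r = 0.992), the serine carboxypeptidase-like gene SCPL7 (0.992), G6PD1 (0.990), whose enzyme opens the oxidative pentose phosphate pathway, DHS2 (0.987), whose enzyme opens the shikimate pathway, and Eucgr.F03064 of family UPF0497 (0.986). Of these 5, 3 were also among the 5 most similar with a prior count of 0.5 in place of 2. Of all 43146 transcripts compared, 115 other than the 6 had an r of at least 0.95.

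Taken singly, Eucgr.F04160 was most like MEE32 (r = 0.994), a shikimate pathway enzyme, and laccase 2 was most like DHS2 (0.988) of the same pathway. Eucgr.F02646 was most like PHR2 (0.995), a photolyase and blue-light receptor relative, and TT10 was most like SCPL11 (0.990). The most similar transcripts to Eucgr.H02579 and Eucgr.E04220 were JAZ3 (0.992) and JAZ12 (0.932), both repressors of jasmonate signalling. Most transcripts with an identifier come from the table of differences between C1 and S1, so a high r to genes of that table is in part set by how both were chosen.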

How the data were processed

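Leaf RNA of 12 libraries was sequenced. Per the study's methods TopHat and Bowtie placed the single-end reads (65 bases, introns up to 5000 bases) on a draft assembly of E. grandis, Cufflinks predicted transcripts from the pooled reads, and BEDTools counted reads in each transcript. The sources used here give neither versions nor the assembly release. The authors deposited unnormalized counts. Reads of E. camaldulensis were thus counted on the genome of another species. Of 43425 transcripts, 245 exact repeats were left out. Names came from the supplementary tables by coordinates or SNP position (2242 transcripts). No genome, annotation or sequence was used.

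Counts were analysed with edgeR 4.0.16 (quasi-likelihood F test, 2-sided, TMM scaling, at least 10 reads over the libraries of a fit, Benjamini-Hochberg adjustment over all transcripts tested, called at 0.01), limma 3.58.1 and DESeq2 1.42.0 in R 4.3.3. Pairs of groups were fitted on their 6 libraries, and populations on all 12 with the group as a term. Each standard error is the absolute log2 fold change divided by the root of its F value. CPM use the TMM-scaled totals, and a prior count of 2 where logged. The procedure was tested on simulated data.

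The members and lists were chosen with earlier results of these data known. The text names the 6 laccases, all other laccases of the supplementary tables, the 2 genes of each other list with the most reads and any whose call differs from the rest of its list, the 5 named transcripts most like the mean of the 6 and the 1 most like each, and named neighbours. TT7, CYP98A3 and PER27 were added after their values were seen and are given no p-value of their own. Genes from the table of allelic expression, which was made from S0 and S1 reads, were given no p-value of S1 against another group. Where the counts of a list include their calls, these calls are a description. C0 and C1, and S0 and S1, hold the same seedlings, so the population number pairs them. Deviations from the group means correlated within populations at 0.254 to 0.301 and 0.235 to 0.383, while C0 with S0 gave 0.132 to 0.142 and C1 with S1, not treated as paired, 0.0454 to 0.154. Alternatives were DESeq2's size factors, other tests, no filter, the block, other distances, subsets of libraries and leaving out each library.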

Additional observations from a re-analysis of the deposited data

Results flagged for a closer look

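For each of the 6 laccases every watered population was higher at the end of the treatment than before it, and every stressed population was lower. The share of all transcripts with this pattern was not counted. For Eucgr.E04220 the stressed direction rests on 3, 5 and 2 reads in S0 against 0, 0 and 1 in S1, and it was not called. The stressed change minus the watered change, in log2 CPM with a prior count of 2 and averaged over the 3 populations, was -9.83 for Eucgr.F04160, -8.94 for Eucgr.F02646, -8.23 for Eucgr.H02579, -6.22 for TT10 (Eucgr.F02648), -5.40 for Eucgr.E04220 and -5.31 for laccase 2 (Eucgr.F02649). The laccase 14 genes had 0 to 2 reads in each S1 library and Eucgr.E04220 had 0 or 1. The sizes and order of their values are therefore set in part by the prior count. The difference was not tested, since the genes were selected on the C1 and S1 libraries, which favours this direction.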

How the results depend on the processing

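None of the 6 laccases changed direction from C0 to C1, S0 to S1 or C1 to S1 under any alternative run. The median log2 fold change of the 6 from C0 to C1 was 3.19 to 3.72 with a library left out. From S0 to S1 it was -6.23 to -4.52, and in the fits without an S0 library Eucgr.E04220 did not reach 10 reads, so the median is over 5. From C1 to S1 it was -8.85 to -8.05 with a library left out, -8.64 with DESeq2's Wald test, -8.37 without the filter, -8.22 with the replicate block and -8.40 with DESeq2's size factors. The spread between populations was taken in another measure, the change in log2 CPM with a prior count of 2. Its SD from C1 to S1 was 0.28 for Eucgr.F04160 to 1.48 for Eucgr.E04220. The prior count draws S1 values of few reads together, as for Eucgr.F04160, so this SD can be too small. Between populations 0 to 2 of the 6 were called with a library left out. In C0 against S0 the log2 fold change of TT10 was 0.27, and -0.02 to 0.55 with a library left out, the lowest without Mt Isa S0 and the highest without Petford C0, and it was not called in any of these. Neighbours called numbered 19 within 100 kb, 11 within 50 kb and 43 within 200 kb, since fewer or more transcripts are tested, and 13 to 16 with a library left out. Of the 5 most similar transcripts, 3 were kept with a prior count of 0.5.

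Over all transcripts, the 69 calls between C0 and S0 became 138 with DESeq2, 174 with edgeR's exact test, 207 with the replicate block and 28 to 148 with a library left out. The 510 calls between populations became 332 with DESeq2 and 204 before the treatment alone. Beside the counts over all transcripts, the replicate block changed no call of the 6 laccases in a comparison run with it. Depth limits Eucgr.E04220 (154 reads) and the S1 values of the laccase 14 genes (0 to 4 reads).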
